A study of Mus musculus with 17 samples.

Results

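The stefin A gene cluster is a run of closely related genes on mouse chromosome 16, and 8 gene models of it, of 24453 in the expression table, are described here: Stfa1, Stfa2, Stfa2l1, Stfa3, 2010005H15Rik, BC100530, BC117090 and Gm5483. They were taken by symbol from the table, and the cluster was chosen by its measured RPKM values in the knockout cells: Stfa3 and 2010005H15Rik fell in knockouts. Every knockout value of a member below is therefore a description, with no test. The study asked how AP-1 family members (ATF3, Jun and JunD, transcription factors that bind DNA as dimers) act in macrophages, and 13 polyA RNA libraries were used. Of these, 8 came from iBMDMs, bone marrow macrophages of C57Bl/6EiJ mice immortalised with BRAF(V600E) and Myc and kept at passage 3 to 8. The iBMDMs carried Cas9 and received a lentivirus with 2 guides and a tagBFP2 marker on which infected cells were sorted; whether a line is a pool or 1 clone is not given in the sources used here. Scramble control, Atf3KO, JunKO and JunDKO gave 2 libraries each, all under vehicle; the control libraries carry the name zsGreen in their titles and Scramble in their genotype label. The other 5 came from TGEMs, peritoneal macrophages elicited with thioglycollate in male mice 8 weeks of age: C57Bl/6EiJ vehicle, C57Bl/6EiJ KLA and Balb/cJ vehicle (1 library each) and Balb/cJ KLA (2 libraries). The animal methods of the paper name the TGEM mice C57Bl/6J or Balb/cJ, a substrain name unlike the C57Bl/6EiJ used here. KLA (Kdo2 lipid A), an agonist of TLR4, was given for 1 h, and vehicle was PBS. In bulk RNA, fewer cells that express a gene and less RNA per cell cannot be told apart.

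Stefins are the type 1 cystatins, small cytosolic proteins that bind papain-like cysteine proteases such as cathepsins B, L, S and H and block their active sites. Humans carry a single stefin A gene, whereas the mouse locus has expanded into many copies with similar exons. Stefin A transcripts are best known from neutrophils, myeloid precursors and stratified epithelia. The secreted relative cystatin C (Cst3) and the cytosolic stefin B (Cstb) are made by most cells.

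The 8 gene models spanned 299 kb in mm10, at chr16:36156811-36455392, with 4 on each strand. On the plus strand lay Stfa2l1, Gm5483, 2010005H15Rik and Stfa1, followed on the minus strand by BC117090, BC100530, Stfa2 and Stfa3. RefSeq now names 2010005H15Rik as Csta2, Gm5483 as Cstdc4, BC100530 as Cstdc5 and BC117090 as Cstdc6, and these were matched by transcript accession. Each has 3 exons in RefSeq except the 2010005H15Rik transcript used by the table, which has 5 exons and starts 31.4 kb upstream of a shorter RefSeq transcript of 3 exons. The coding sequences had 291 to 312 bases. Over 28 pairs of members the coding identity ran from 77.9% to 98.0%, with a median of 81.9%. The members formed close subgroups: Stfa1 and BC100530 (98.0%), 2010005H15Rik and Gm5483 (96.9%) and Stfa2l1 and Stfa2 (96.5%), with BC117090 next to BC100530 (96.2%). Stfa3 stood alone, at 81.1% to 84.4% from each other member.

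The coding sequences of the 3 members with most reads show how far their reads can be told apart. In the first pair, capitals mark the 9 bases at which 2010005H15Rik and Gm5483 differ; in Stfa3, capitals mark the 60 bases that differ from both others or face a gap.
2010005H15Rik: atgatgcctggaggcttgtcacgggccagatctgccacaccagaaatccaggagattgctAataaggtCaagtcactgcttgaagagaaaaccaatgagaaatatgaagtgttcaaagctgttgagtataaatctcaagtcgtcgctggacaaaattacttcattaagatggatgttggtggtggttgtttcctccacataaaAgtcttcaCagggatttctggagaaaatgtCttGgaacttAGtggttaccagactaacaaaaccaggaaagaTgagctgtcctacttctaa
Gm5483: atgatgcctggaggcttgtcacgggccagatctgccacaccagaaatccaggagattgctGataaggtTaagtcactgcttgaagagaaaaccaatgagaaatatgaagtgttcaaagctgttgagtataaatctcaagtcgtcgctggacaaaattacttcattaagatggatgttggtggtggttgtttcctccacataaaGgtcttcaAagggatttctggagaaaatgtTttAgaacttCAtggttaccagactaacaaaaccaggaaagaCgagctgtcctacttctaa
Stfa3, coding bases 1 to 300 of 312: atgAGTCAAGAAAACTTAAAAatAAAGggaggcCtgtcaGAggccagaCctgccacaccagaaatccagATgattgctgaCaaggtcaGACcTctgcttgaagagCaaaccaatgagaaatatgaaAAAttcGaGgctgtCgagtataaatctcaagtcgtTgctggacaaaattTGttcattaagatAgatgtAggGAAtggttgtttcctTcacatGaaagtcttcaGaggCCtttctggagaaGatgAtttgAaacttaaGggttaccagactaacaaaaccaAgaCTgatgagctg
These are the reference sequences of GRCm38.p6, the assembly behind mm10, read from the RefSeq annotation on the coding strand. The lower-case stretches shared by 2010005H15Rik and Gm5483 differ in length. The longest lie in the earlier part of the sequence and the later ones are shorter, whereas the capitals in Stfa3 are spread along its length. Whether a read can fall wholly within a shared stretch depends on the read length, which is not given in the sources used here.

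Reads that fall in shared stretches cannot be assigned to a single copy, so the overlap was counted in windows of 50 bases, a length chosen here because the read length is not given in the sources used here. In Gm5483, 144 of 365 transcript windows (39.5%) were also found in 2010005H15Rik, and 130 of 479 (27.1%) of 2010005H15Rik windows were found in Gm5483. BC100530 shared 44.6% of its windows with other transcripts of the cluster, Stfa1 37.1%, BC117090 33.7%, Stfa2 17.4% and Stfa2l1 17.0%. Stfa3 shared 0 of 363 windows, and none of its 265 windows inside exons occurred elsewhere in the mm10 chromosomes. The levels of Stfa3 therefore rest on unshared windows, whereas those of 2010005H15Rik and Gm5483 are uncertain. Of their windows inside exons, 105 of 283 for 2010005H15Rik occurred elsewhere in the genome, 12 of them outside the cluster, and 109 of 267 for Gm5483, 0 of them outside. The alignment used the default settings of STAR, and how the counting step treated reads with several matches is not given in the sources used here.

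**Figure D1:**
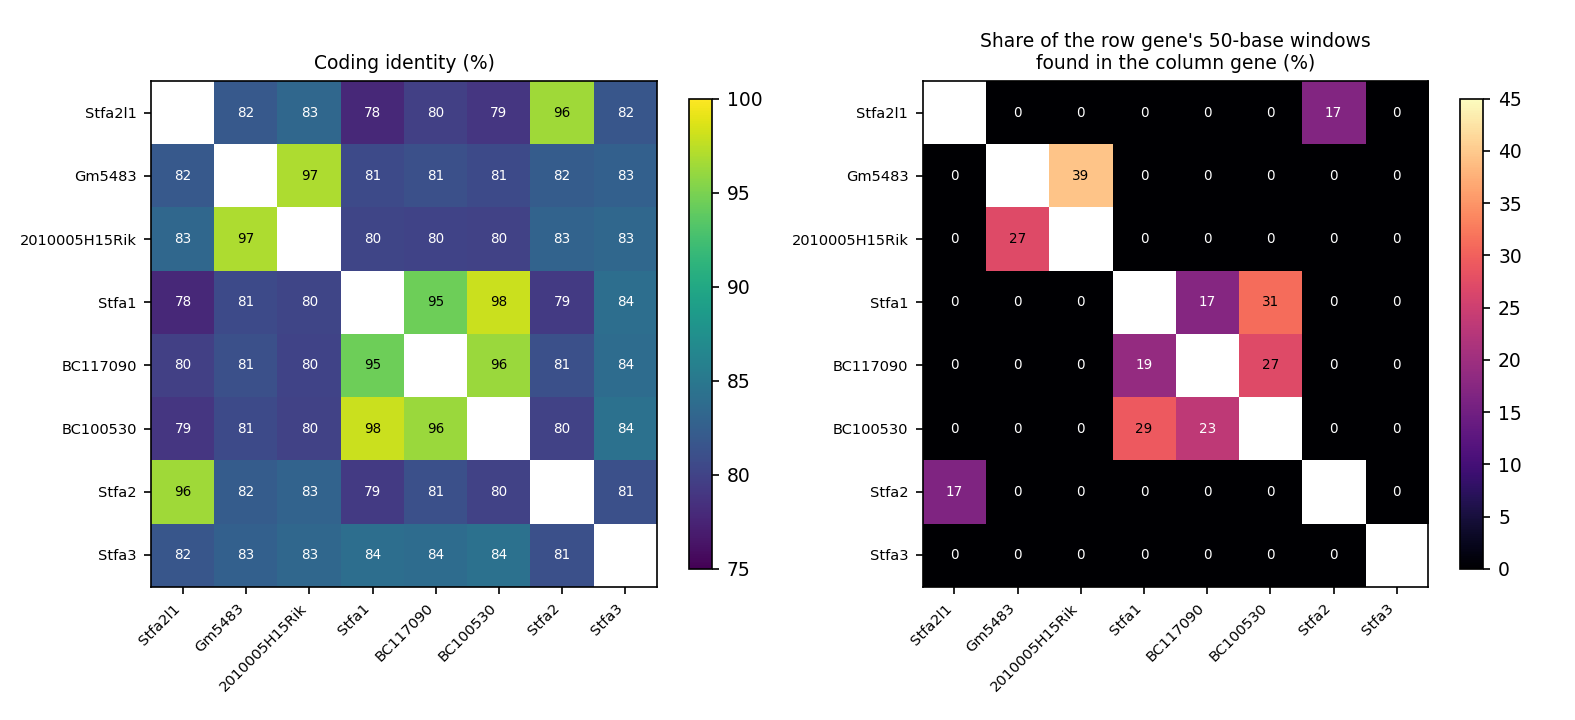
Pairwise comparison of the 8 stefin A gene models in chromosomal order. Left, identity of the coding sequences in percent; right, share in percent of the 50-base windows of the row gene that also occur in the column gene. Blocks of near copies stand out and Stfa3 shares no window.

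The stretches just upstream of the transcript starts are shown because most members, the well-read Stfa3 and the nearly unread Stfa1 among them, are alike there. RefSeq promoter windows (250 bases before to 50 after the start, GRCm38.p6) matched 7 of 8 members; BC117090 had no match. For 2010005H15Rik the window of the shorter transcript was read from the same genome. The 120 bases before the start follow, with capitals on the longest run of letters held upstream by all the windows except the far upstream one of 2010005H15Rik.
Stfa3, chr16:36455393-36455512, minus strand: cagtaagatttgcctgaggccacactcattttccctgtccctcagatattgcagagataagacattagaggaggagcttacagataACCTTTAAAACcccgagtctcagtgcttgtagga
2010005H15Rik, shorter transcript, chr16:36252878-36252997, plus strand: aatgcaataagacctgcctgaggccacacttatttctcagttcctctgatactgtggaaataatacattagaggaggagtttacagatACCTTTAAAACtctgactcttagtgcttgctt
Gm5483, chr16:36184092-36184211, plus strand: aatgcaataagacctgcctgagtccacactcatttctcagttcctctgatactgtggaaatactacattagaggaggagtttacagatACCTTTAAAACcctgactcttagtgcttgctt
Stfa1, chr16:36277028-36277147, plus strand: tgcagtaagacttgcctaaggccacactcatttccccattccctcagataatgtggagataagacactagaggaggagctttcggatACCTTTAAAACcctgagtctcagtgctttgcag
2010005H15Rik, far upstream start, chr16:36221442-36221561, plus strand: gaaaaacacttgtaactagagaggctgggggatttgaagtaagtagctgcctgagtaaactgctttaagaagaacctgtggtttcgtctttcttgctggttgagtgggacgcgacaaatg
The run ACCTTTAAAAC began 12 to 36 bases before the start in the members. It was picked from these windows and is a description: 18 of 32851 promoters (0.0548%) held it on either strand, 9 of them within the cluster. Over 250 upstream bases, identity to Stfa3 was 85.5% for BC100530, 84.6% for Stfa1, 82.9% for Stfa2l1, 82.2% for Stfa2, 70.5% for the shorter transcript of 2010005H15Rik and 69.3% for Gm5483. The far upstream window of 2010005H15Rik was 51.1% identical and lacked the run.

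Because the knockouts target AP-1 proteins, the 300-base windows were searched on both strands for TGAGTCA (AP-1), TGACGTCA (CRE), TTGCNNAA (C/EBP) and GAGGAAGT (PU.1). TGAGTCA was found in 1 of 7 member windows, that of Stfa3, and in 5.20% of all 32851 promoters. It lay 29 bases after the first transcribed base of Stfa3 and made up bases 2 to 8 of the coding sequence, so the letters overlap the start codon (capitals, chr16:36455345-36455374, minus strand).
Stfa3: ctgcccatcaaTGAGTCAagaaaacttaaa
TTGCNNAA was found in the windows of Stfa1 and BC100530 (10.8% of all promoters). TGACGTCA and GAGGAAGT were found in no member window (1.79% and 3.20% of all promoters). A match is a description of letters, and these windows leave out distal enhancers.

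RNA of the targeted genes was not lost: Atf3 measured 154 and 169 RPKM in the Atf3KO libraries against 80.7 and 77.4 in Scramble, Jun 26.2 and 20.5 in JunKO against 17.6 and 18.5, and Jund 6.94 and 6.07 in JunDKO against 9.19 and 8.33. Guide edits need not remove the transcript, so these values do not check the labels. The paper reports western blots of the knockout lines and a large loss of Jun ChIP-seq peaks in Jun knockout iBMDMs, which were not examined here. Atf3KO libraries detected 10425 and 10631 gene models and the other iBMDM libraries 11884 to 12533. The Atf3KO libraries also differed from each other, with Jund at 22.6 and 83.0 RPKM, so each is given separately below.

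The members differed widely in level. Over the 13 libraries, 2307 reads fell on the 8 members, of which Stfa3 took 1412 (61.2%), 2010005H15Rik 725 (31.4%) and Gm5483 159 (6.89%). Stfa2 had 6 reads, BC100530 4 and Stfa1 1, while Stfa2l1 and BC117090 had 0 reads in all 13 libraries. All 2307 reads lay in iBMDM libraries. RPKM (reads per kilobase of exon, scaled to the counted reads of a library) came in steps that gave whole reads, and 3 reads in a library, the limit that a count of 0 allows, corresponded to 0.312 to 5.06 RPKM across members and iBMDM libraries. These limits and the intervals below cover counting error only.

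Stfa3 was among the most abundant transcripts of the control iBMDMs. It measured 243 RPKM (191 reads) and 294 RPKM (205 reads) in the Scramble libraries, ranks 172 and 125 of 24453 gene models. In JunKO it measured 506 and 604 RPKM (351 and 421 reads), ranks 75 and 48. Atf3KO gave 76.6 and 35.6 RPKM (137 and 105 reads). JunDKO gave 1.58 and 0.133 RPKM, which was 1 read in each library. The 4 groups did not overlap, in the order JunKO, Scramble, Atf3KO and JunDKO. The group means were 555 ± 69.1 RPKM (SD, n = 2) for JunKO, 269 ± 36.2 for Scramble, 56.1 ± 28.9 for Atf3KO and 0.858 ± 1.02 for JunDKO. Thus the mean was 2.06 times that of Scramble in JunKO and 4.79-fold lower in Atf3KO. For JunDKO the pooled read rate in Scramble was 1087 times that of the knockout, with an exact 95% interval of 299 to 9010 that rests on 2 reads in JunDKO and mostly on the depth of its second library. Against the first JunDKO library alone the rate was 169 times (30.1 to 6688), and against the second alone 2006 times (358 to 79420). The first Atf3KO library, which carries the date of the Scramble libraries in its label, was also below both of them, whereas the second carries a later date. The 2 Atf3KO libraries differed 2.15-fold from each other.

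2010005H15Rik, the next most abundant member, showed the same order of JunKO over Scramble, but it had no reads in Atf3KO. It measured 64.6 and 132 RPKM in Scramble (65 and 118 reads), 186 and 408 RPKM in JunKO (165 and 364 reads) and 0 in both Atf3KO libraries. JunDKO gave 1.24 and 1.25 RPKM, from 1 and 12 reads. The JunKO and Scramble libraries did not overlap, although the replicates differed 2.05-fold in Scramble and 2.19-fold in JunKO. The means were 297 ± 157 RPKM (SD, n = 2) in JunKO and 98.5 ± 47.9 in Scramble, a ratio of 3.01, and 1.24 ± 0.00919 in JunDKO, 79.3-fold below Scramble. By pooled reads, with 0 counts taken as the 3 reads they allow in the group, its level in Atf3KO was at least 195-fold lower. This bound rests on both Atf3KO libraries together: alone, the first allows 1.31 RPKM and the second 0.796 RPKM. The shorter transcript has 417 bases against 528, so values per kilobase would be 1.27 times higher if the reads came from it, in every library alike.

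Gm5483, the near copy of 2010005H15Rik, measured 26.7 and 37.2 RPKM in Scramble (21 and 26 reads), 57.5 and 102 RPKM in JunKO (40 and 71 reads) and 0 in both Atf3KO libraries. In JunDKO it had 1.58 RPKM, a single read, and 0. JunKO lay above Scramble in both libraries, and both knockouts without reads or with 1 read lay below. The means were 79.5 ± 31.1 RPKM (SD, n = 2) in JunKO and 32.0 ± 7.47 in Scramble, a ratio of 2.49. Gm5483 was at least 50.1-fold lower in Atf3KO than in Scramble by pooled reads, while the first and second Atf3KO libraries alone allow 1.67 and 1.02 RPKM. In JunDKO the pooled Scramble rate was 258 times higher, with an exact 95% interval of 44.1 to 10409. Against the first JunDKO library alone it was 20.0 times higher (3.43 to 808), and the second, with 0 reads, was at least 79.4-fold lower.

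**Figure D2:**
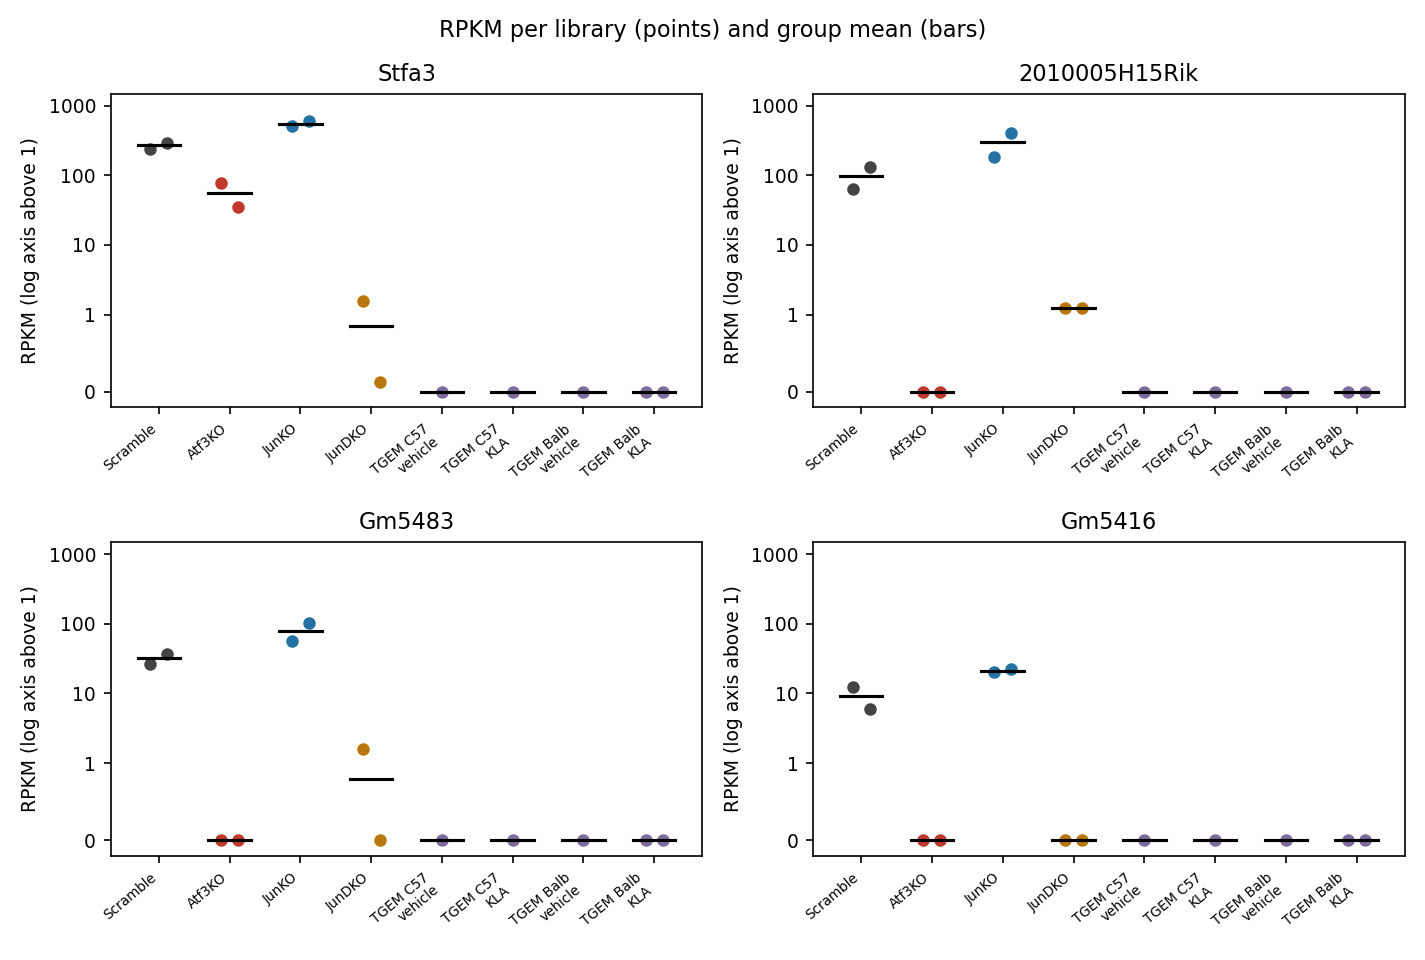
RPKM of Stfa3, 2010005H15Rik, Gm5483 and the neighbouring copy Gm5416 in each library (points) with the group mean (bars), on an axis that is linear below 1 and logarithmic above. JunKO lies above Scramble in each panel, Atf3KO keeps 35.6 to 76.6 RPKM of Stfa3 but is at 0 for the other genes, and the 5 TGEM libraries are at 0.

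The low members gave few reads. Stfa2 was seen only in JunKO, at 2.81 and 5.58 RPKM (6 reads in all). BC100530 had 4 reads (4.75 RPKM) in the first Scramble library and none elsewhere, and Stfa1 had 1 read (1.26 RPKM) in that library only. At 1553296 to 1929988 counted reads in the Scramble, JunKO and first JunDKO libraries, a count of 0 allows levels of up to 5.06 RPKM, depending on member and library. A member listed at 0 there may thus still have been present at a few RPKM. The other 8 libraries held 2342456 to 18444441 counted reads. For Stfa2 the limits in Scramble were 3.72 and 4.19 RPKM, and for BC100530 in the second Scramble library 4.02 RPKM.

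The balance between members shifted as well. Stfa3 held 71.4% and 63.4% of the summed member RPKM in the Scramble libraries, 67.3% and 54.0% in JunKO and 100% in both Atf3KO libraries. The summed level was 340 and 464 RPKM in Scramble, 752 and 1118 in JunKO, 76.6 and 35.6 in Atf3KO, and 4.40 and 1.38 in JunDKO. Stfa3 exceeded 2010005H15Rik 3.76-fold and 2.22-fold in Scramble and 2.72-fold and 1.48-fold in JunKO, so that these ratios overlapped between both groups, although JunKO was the lower of each same-numbered pair. In JunDKO, where the second library has 18444441 reads, 2010005H15Rik had 12 reads and Stfa3 1, the reverse of the order in Scramble, whereas the first had 1 read of each.

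All 3 knockouts were set against the same Scramble libraries, so their differences are not independent. Counting members that were at least 2-fold apart on the log2(RPKM + 1) scale with no overlap between libraries, 3 of 8 were lower in Atf3KO, where 15.3% of the 10691 gene models averaging 1 RPKM or more did the same. Of the 8 members, 4 reached that average over the iBMDM libraries, so members and gene models are counted on unlike bases. In JunDKO 3 of 8 were lower, against 4.71% of gene models, and in JunKO 4 of 8 were higher, against 1.35%. These 4 include Stfa2, at 2.81 and 5.58 RPKM from 2 and 4 reads. Its 0 counts in Scramble allow 3.72 and 4.19 RPKM, so an overlap is not excluded for Stfa2. Nothing is read from these member counts, since the cluster was picked on these contrasts. On that scale Stfa3 differed from Scramble by -2.33 in Atf3KO, 1.04 in JunKO and -7.29 in JunDKO, 2010005H15Rik by -6.55, 1.56 and -5.38, and Gm5483 by -5.02, 1.25 and -4.34. These logs understate the change of a gene at 0. The median gene model was 0.23 higher in JunDKO than in Scramble on the same scale, and 0.05 and 0.01 higher in Atf3KO and JunKO. Without the second Scramble library the count over all 24 member and knockout pairs rose from 10 to 16, because the reads of BC100530 and Stfa1 were in the library that remained. Without the second JunKO library it fell to 7, with Stfa3, 2010005H15Rik and Gm5483 then 0.92, 1.00 and 0.85 above Scramble, each under a 2-fold change before rounding; without the first Scramble library it was 9, with Stfa3 at 0.91 in JunKO.

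Complete loss was also counted among the genes well read in Scramble. Of 2865 gene models with at least 20 RPKM in both Scramble libraries, 9 had 0 reads in both Atf3KO libraries, 2010005H15Rik and Gm5483 among them. JunDKO had 4 such models and JunKO 0, and none of these was a member. Since the cluster was picked on these contrasts, the place of its members among the 9 is only a description. Depth differed as well: JunKO libraries held 1704872 and 1713948 counted reads, Atf3KO 4397164 and 7236838, and JunDKO 1553296 and 18444441. The counts are therefore not compared between knockouts.

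The neighbouring genes allowed the members to be placed in their surroundings. Within 200 kb of the outermost members the table held 10 other gene models, 2 of them inside the cluster. Gm5416 (RefSeq Csta3), a further stefin-like copy between Gm5483 and 2010005H15Rik, measured 12.5 and 6.04 RPKM in Scramble (7 and 3 reads), 20.2 and 22.1 in JunKO and 0 in both Atf3KO and JunDKO, a pattern of the same order as Gm5483. Gm6815, Csta1 and Casr, the calcium-sensing receptor, had 0 in every library. The other 6 neighbours averaged at least 1 RPKM over the 13 libraries and had reads in both iBMDMs and TGEMs. Fam162a averaged 181 RPKM in Scramble and 123, 276 and 66.5 RPKM in Atf3KO, JunKO and JunDKO. Kpna1, an importin alpha that carries proteins into the nucleus, averaged 33.6, 26.9, 27.4 and 26.0 RPKM in the same order, and Parp9, an ADP-ribosyltransferase family member, 33.8, 28.5, 34.1 and 25.7. Ccdc58 averaged 22.0, 7.63, 30.0 and 15.3 RPKM and Wdr5b 0.965, 0.0775, 0.986 and 2.52. Cd86, a costimulatory ligand for T cells, ran the other way with 14.6 RPKM in Scramble and 22.9, 12.3 and 37.8 in Atf3KO, JunKO and JunDKO. The group means of Fam162a and Parp9 followed the order of Stfa3 and those of Ccdc58 the order of 2010005H15Rik, with smaller differences. None of the 6 was at 0 in any knockout mean.

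**Figure D3:**
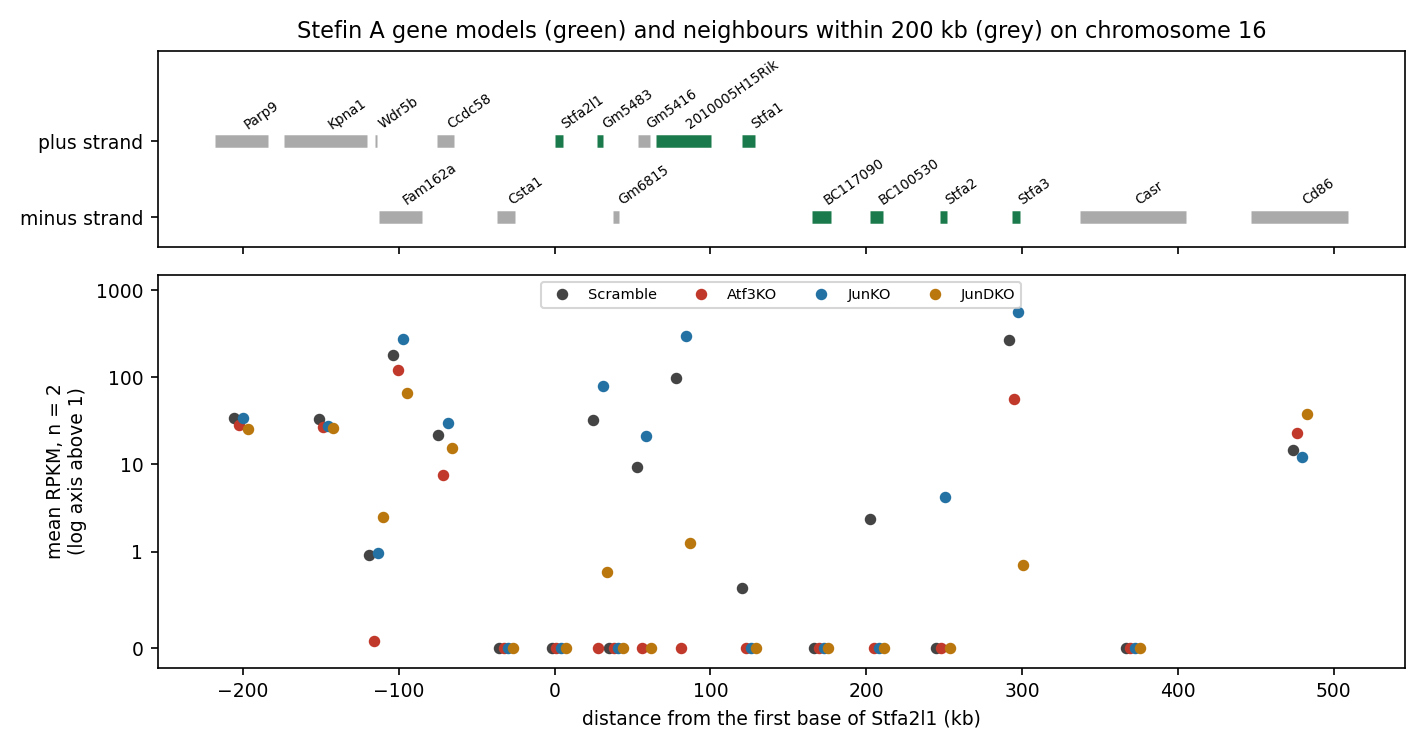
Position of the 8 stefin A gene models (green) and the 10 neighbours (grey) along chromosome 16 in kb from the first base of Stfa2l1 (top), and the mean RPKM of each gene in the 4 iBMDM groups (bottom, n = 2, points shifted sideways by group, axis linear below 1 and logarithmic above). Stfa3 lies at the far end of the cluster and Gm5483 and 2010005H15Rik starting 27.4 and 64.8 kb from its first base, and the flanking genes keep their levels within about one order of magnitude across groups, Wdr5b excepted.

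Profiles over the 13 libraries were compared by the root mean square difference of log2(RPKM + 1) after subtracting the mean of each gene, among the 10929 gene models averaging 1 RPKM or more. The nearest profile to Gm5483 was 2010005H15Rik (0.81), and outside the members Gm5416 (0.88), Mir3094 (1.24) and Ak4 (1.30). For 2010005H15Rik the nearest outside profiles were Gm5416 (1.59), Mir3094 (1.78) and Gm24572 (1.91). Stfa3 was closest to Fpr1, the formyl peptide receptor of phagocytes (1.11), Marco, a scavenger receptor (1.27), and Mir7678 (1.29), and farther from 2010005H15Rik (2.07) and Gm5483 (2.13). Fpr1 averaged 108 RPKM in Scramble and 67.6, 75.4 and 0.632 RPKM in Atf3KO, JunKO and JunDKO. Marco averaged 530, 628, 645 and 6.24 RPKM in the same order. Libraries of a group share cells, and most share a date, so likeness is a description.

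In TGEMs no read of any of the 8 members was found, whether from C57Bl/6EiJ or Balb/cJ mice and with or without KLA. The 5 libraries held 40826518 counted reads in all, and 3 reads over them corresponded to 0.181 RPKM for Stfa3 and 0.141 RPKM for 2010005H15Rik. By pooled reads, Scramble iBMDMs were thus at least 1480-fold higher for Stfa3, 684-fold for 2010005H15Rik and 176-fold for Gm5483. These levels are set side by side with no test, and the Scramble values were used in choosing the cluster. Cell source, immortalisation, culture and label date all differ between iBMDM and TGEM libraries and cannot be told apart. In a single TGEM library a count of 0 allows 0.427 to 3.15 RPKM of Stfa3. No member passed the mean of 1 RPKM needed for the limma test, so 0 of 8 members could be tested for KLA, strain or their interaction, in which 1.13% (KLA) and 1.16% (strain) of 10357 gene models were called. A response below these limits was not detectable.

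Cysteine proteases, among them targets of stefins, and the other cystatins gave the tested genes. The lists held 11 genes (10 cysteine cathepsins and legumain) and 15 cystatins other than stefin A, of which 10 and 2 passed the filter. Calls required 3 things: a limma-trend p under 0.05 after Benjamini-Hochberg adjustment over all gene models, a 2-fold change or more, and 16 RPKM or more as the mean of one of the groups. Of the other cystatins only Cst3 and Cstb averaged 1 RPKM or more, and 10 of the 15 had 0 reads in all 13 libraries. Cstb, the other stefin, measured 338 to 450 RPKM in Scramble and JunKO, 334 and 452 RPKM in Atf3KO and 271 and 328 in JunDKO, and was called in no comparison. The 4 most abundant cathepsins, Ctsb, Ctss, Ctsz and Ctsl, averaged 734, 751, 545 and 229 RPKM in Scramble and were called in no comparison either. Ctss in Atf3KO and Ctsl in JunDKO passed the adjusted p but changed less than 2-fold. Ctsl averaged 373 RPKM in JunDKO (log2 difference 0.70, limma adjusted p = 0.0354), and Ctss is given below.

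In JunDKO 5 of these 12 genes were called, against 4.97% of 10691 gene models. Ctsk, the collagen-degrading cathepsin K of osteoclasts, fell from 98.8 and 95.1 RPKM in Scramble to 0 and 1.21 RPKM in JunDKO (log2 difference -6.04, SE 0.34, limma adjusted p = 4.22e-05). Legumain (Lgmn), an asparaginyl endopeptidase of lysosomes, rose from 235 and 171 RPKM to 792 and 686 (1.87, SE 0.20, limma adjusted p = 0.000994). Ctsc, which activates serine proteases of granules, rose from 17.4 and 19.7 RPKM to 54.7 and 62.0 (1.60, SE 0.21, limma adjusted p = 0.00244). Ctsf rose from 5.55 and 2.98 RPKM to 31.9 and 23.2, and Cst3 from 329 and 228 RPKM to 718 and 569, with limma adjusted p = 0.00657 and 0.0201. The libraries of the 2 groups did not overlap for any of the 5. Of the 12 genes, 8 had an unadjusted p under 0.05 in JunDKO, and limma-voom called 5. The median difference was 0.28 over the 10 tested genes of the cathepsin and legumain list and 0.23 over all gene models tested. Lgmn, Ctsc and Ctsk were called under all 13 alternatives, whereas the call of Cst3 was lost when libraries were scaled to equal medians, and the calls of Cst3 and Ctsf were lost with no filter on low values, without the second Scramble library or without either JunDKO library.

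In Atf3KO, where 12.5% of gene models were called, 1 of 12 was called: Ctsk measured 53.8 and 41.0 RPKM (-1.03, SE 0.34, limma adjusted p = 0.0429), a call that 8 of 13 alternatives did not make, including the fits that left out any of the Scramble or Atf3KO libraries. Ctsh, cathepsin H, named after its values were seen, was low in iBMDMs and measured 0.424 and 0.687 RPKM in Atf3KO against 5.47 and 6.54 in Scramble (-2.17, SE 0.25, limma adjusted p = 0.000868), under the level needed for a call. Of the 12 genes, 8 had an unadjusted p under 0.05 in Atf3KO, and limma-voom called 1. Ctss averaged 422 RPKM in Atf3KO against 751 in Scramble (-0.83, limma adjusted p = 0.0106). Lgmn and Ctsc were higher in Atf3KO, by 0.80 and 0.91 (limma adjusted p = 0.0162 and 0.0113). The changes of Ctss, Lgmn and Ctsc were under 2-fold, so none was called. In JunKO, where 0.196% of gene models were called, none of the 12 was called, 3 had an unadjusted p under 0.05 and limma-voom called 0. In TGEMs, KLA called none of the 12, with 0 at an unadjusted p under 0.05 and 0 by limma-voom. Between strains Ctsk was lower in Balb/cJ, at 107 to 146 RPKM against 348 and 496 in C57Bl/6EiJ (-1.76, SE 0.30, limma adjusted p = 0.0351). For strain, 3 of the 12 had an unadjusted p under 0.05 and limma-voom called 2: Ctsk and Ctsh. Ctsh measured 71.2 to 88.4 RPKM in Balb/cJ and 173 and 221 in C57Bl/6EiJ (-1.25, SE 0.25, limma adjusted p = 0.0530), and the fit of all 13 libraries called it too. No date in the titles is shared by libraries of both strains, so strain and label date cannot be told apart. The strain call of Ctsk was lost in 8 of 14 alternatives, including those without either C57Bl/6EiJ library, Balb/cJ vehicle or the first Balb/cJ KLA library.

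**Figure D4:**
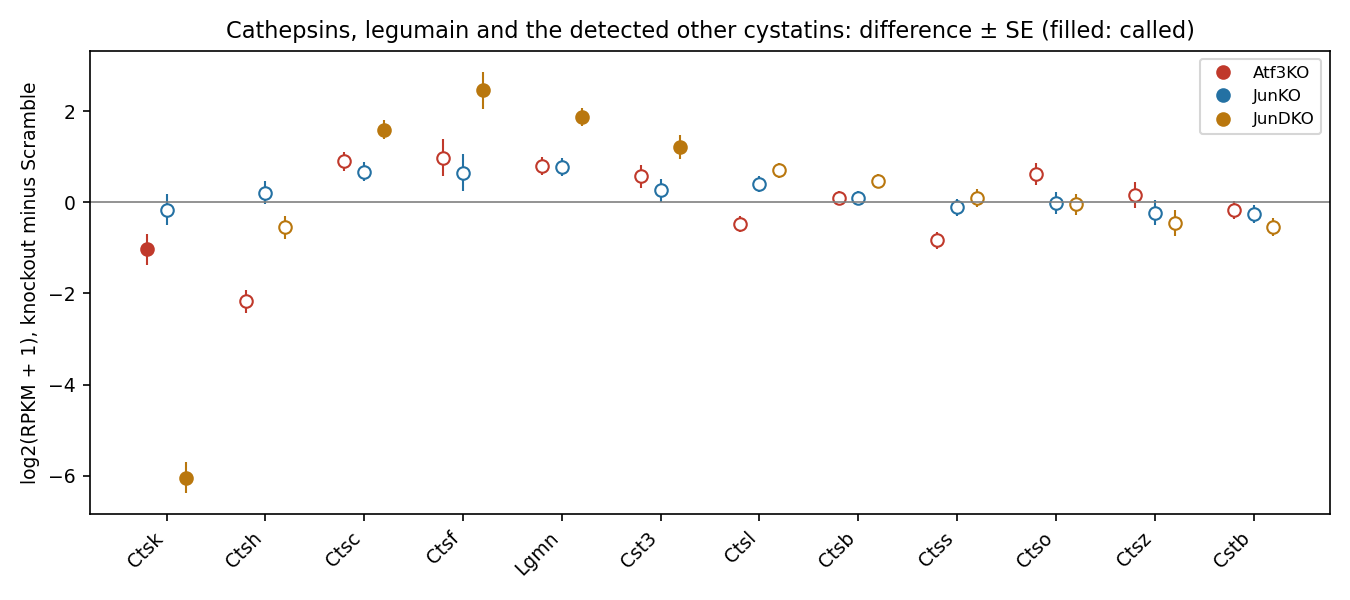
Difference of log2(RPKM + 1) between each knockout and Scramble for the 9 cathepsins, legumain and 2 other cystatins that passed the filter (points, with bars of 1 SE from limma; n = 2 libraries a group). Filled points were called; Ctsk in JunDKO is lowest at -6.04 and Ctsf in JunDKO highest at 2.46.

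Markers of other cells were set beside the members, since stefin A transcripts are known from neutrophils. All 9 macrophage markers were above 1 RPKM on average, and their summed level was 22457 to 24039 RPKM for Scramble, 24117 to 33226 for Atf3KO, 30844 to 31198 for JunKO and 17040 to 17621 for JunDKO. Most of that sum was Lyz2, lysozyme, at 21520 and 20190 RPKM in Scramble and 15109 and 14815 in JunDKO. The rest of the list was mixed in JunDKO. Adgre1, which encodes F4/80, measured 669 and 744 RPKM in Scramble and 424 and 471 in JunDKO, and Itgam, which encodes CD11b, 441 and 420 against 213 and 220. Mertk, a receptor for engulfing dead cells, measured 7.04 and 8.27 RPKM in Scramble and 36.1 and 36.8 in JunDKO, and Csf1r, the M-CSF receptor, 474 and 350 against 703 and 562, so both were higher there. Of 18 neutrophil markers, 14 averaged below 1 RPKM and reached at most 0.871 RPKM in any iBMDM library, and the defining genes Ly6g, Camp, Retnlg, Fcnb and S100a9 had 0 reads in all 13 libraries. Lcn2, lipocalin-2, which macrophages can also make, measured 929 to 1423 RPKM in Scramble, Atf3KO and JunKO, and 3.05 and 0 RPKM in JunDKO. S100a8 measured 21.8 to 41.1 RPKM in the same 3 groups and 0 in both JunDKO libraries. The other 2 markers above 1 RPKM followed other orders. Mmp8, a collagenase, measured 11.0 and 8.62 RPKM in Scramble, 11.1 and 10.8 in JunDKO, 6.97 and 5.50 in JunKO and only 1.03 and 0.283 in Atf3KO. Csf3r, the G-CSF receptor, measured 2.53 and 3.31 RPKM in Scramble, 7.69 and 4.35 in JunKO, 10.6 and 11.6 in Atf3KO, and 14.1 and 12.5 in JunDKO. Thus Lcn2 and S100a8 were low with the members in JunDKO, Mmp8 was low with them in Atf3KO, and Csf3r was above Scramble in all 3 knockouts; their part in the result was not tested. The summed neutrophil list, mostly Lcn2 in Scramble, Atf3KO and JunKO and mostly Mmp8 and Csf3r in JunDKO and TGEMs, was 974 to 1354 RPKM for Scramble, 1176 to 1257 for Atf3KO, 1093 to 1461 for JunKO, 23.3 to 28.7 in JunDKO and 23.0 to 51.6 in TGEMs. Summed T cell, B cell, mast cell and keratinocyte markers stayed at or below 1.85 RPKM in every iBMDM library, and eosinophil markers at or below 6.15 RPKM. In TGEMs the B cell markers summed to 11.2 to 25.2 RPKM and the mast cell markers to 1.78 to 19.2 RPKM.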

How the data were processed

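PolyA RNA-seq was used from 13 of 17 samples; 4 GRO-seq samples were left out, having no column in the table used here. Per the labels and the methods, the authors ran STAR with its default settings against mm10 or a Balb/cJ genome built on it and counted exons of condensed gene models with HOMER, and the deposited values are RPKM (headed FPKM); versions, strand setting, read length and the counting of multiply mapped reads are not given in the sources used here. Groups came from the labels, which do not state separate animals or cultures, so p-values measure the spread between these libraries, which may be technical.

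Whole reads were recovered from RPKM steps (all values up to 50 reads were within 0.05 reads or the rounding), giving 1553296 to 18444441 reads per library. Fits used limma 3.58.1 (limma-trend, R 4.3.3) on log2(RPKM + 1), models averaging 1 RPKM or more, Benjamini-Hochberg adjusted and two-sided; the TGEM fits held strain and treatment together, the iBMDM fit held 4 groups. Sequences came from GRCm38.p6 and RefSeq, with Biopython 1.88 alignments and blastn 2.17.0. Scripts were tested on simulated data. The members and lists were chosen with earlier results of these data known, and the iBMDM tests of cathepsins and cystatins were added after seeing the data. Named genes were all members, list genes called or highest in level, neighbours within 200 kb of at least 1 RPKM and the 3 nearest profiles; Ctsh, the neighbours at 0 and further cell type markers were named after their values were seen. Alternatives covered pseudocounts, filters, scaling, limma-voom, covariates, a replicate block and single libraries left out.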

Additional observations from a re-analysis of the deposited data

How the results depend on the processing

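In TGEMs 0 members were called for KLA, strain or their interaction under every alternative run, which follows from 0 reads and says nothing of stability. The 9 knockout differences of Stfa3, 2010005H15Rik and Gm5483 kept their sign in all 81 recalculations, which is fixed where a library is left out, since the groups do not overlap. The largest change came from the pseudocount for genes at 0: 2010005H15Rik in Atf3KO ran from -9.85 to -4.29. The count of member and knockout pairs apart was 10, and it ran from 7 to 16 when single libraries were left out.

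Of the 12 tested cathepsins, legumain and cystatins, the strain count of 1 became 0 with no filter on low values, equal medians, quantile normalization or no covariate, became 2 with limma-voom or all 13 libraries, and ran from 0 to 1 without single libraries. The Atf3KO count of 1 became 0 with a pseudocount of 0.1 or 5 or no filter, 2 with no RPKM minimum, and ran from 0 to 1 without single libraries. The JunDKO count of 5 became 3 with no filter on low values and ran from 3 to 5 without single libraries. The KLA and JunKO counts were 0 throughout.

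The labels do not say that replicate numbers mark a shared batch, and with 2 numbers a pairing is not settled: the deviations of first replicates correlated from 0.34 to 0.43 among Scramble, JunKO and JunDKO and from -0.34 to -0.20 between these and Atf3KO, whose second library has another date. With the replicate block the list count was 0 in Atf3KO, 0 in JunKO and 5 in JunDKO, and calls over all gene models went from 1339 to 1320, from 21 to 8 and from 531 to 506. With the block and the Scramble, JunKO and JunDKO libraries alone, a fit added after seeing the data that also has fewer samples, the list count was 0 in JunKO and 5 in JunDKO, and 63 and 576 gene models were called. With the Atf3KO numbers crossed, 1391 gene models and 1 list gene were called in Atf3KO. Over all gene models, KLA calls fell from 117 to 15 without Balb/cJ vehicle and were 0 with no filter. Strain calls ran from 17 to 235 without single libraries. Scaling to equal medians moved JunDKO from 288 higher and 243 lower to 161 higher and 370 lower. In the shallow libraries a count of 0 allows up to 5.06 RPKM of a member.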
